A study of Rattus norvegicus with 15 samples.

Results

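Marker genes of T cells, natural killer (NK) cells and macrophages were followed across 15 chemically induced mammary tumours of rats. The list held 34 genes, of which 17 were lymphoid, 2 were carried by leukocytes in general and 15 were myeloid. A gene was measured through the probes whose transcript accession maps to its rat symbol, and 33 of the 34 had such a probe. A probe counted as tested when the scanner software marked it well above background on 5 or more of 15 arrays. This left 20 members, 7 lymphoid, 2 pan-leukocyte and 11 myeloid, among 8377 genes and 21010 probes tested in all. In whole tumours, fewer cells of a type and less RNA per cell cannot be told apart.

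The tumours came from daughters of Sprague-Dawley dams, 16 dams per group. Both received 1 of 3 chows in early life, the dams from gestation day 10 to weaning at day 21 and the daughters until day 51. The zinc-deficient chow (ZnD) held 3 mg/kg zinc, the zinc-supplemented chow (ZnS) 180 mg/kg and the adequate chow (ZnA, the control) 35 mg/kg. Rats of all 3 groups then received 50 mg/kg of the carcinogen 7,12-dimethylbenz[a]anthracene (DMBA) by stomach tube at day 51, ate adequate chow afterwards, and gave tubular or papillary tumours at 180 days. RNA from 5 tumours per diet was labelled with Cy3 and hybridised to 1 single-colour Agilent rat array each. Nothing in the labels ties a tumour to an animal or a litter. The p-values below therefore reflect only how much these 15 tumours varied, which may be partly technical.

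T cells carry the CD3 chains, which bring the antigen receptor to the surface and pass its signal to the kinase ZAP-70. Cytotoxic T cells and NK cells also hold granules with granzymes and perforin. Macrophages are recognised by receptors for growth factors, lipids and bacterial products, and by a large set of lysosomal proteins. Both kinds of cell enter mammary tumours, and in bulk RNA their marker genes depend on how much of the sample they make up.

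Each level is the log2 processed signal with the log2 of its array's 75th percentile subtracted, so a level of 0 equals that percentile and a difference of 1 is a doubling. The arrays differed in brightness, with 75th percentiles from 50.7 to 177 signal units and 13854 to 24009 of 43379 spots well above background, and 0 spots were saturated. Arrays ZnD 1, ZnD 4 and ZnA 2 were the dimmest. They lay on 4 slides, each with all 3 diets. The lowest signal among probes well above background stood between -3.03 and -1.11 depending on the array, so levels of dim members near these values are bounds rather than measurements. Any 2 arrays of a diet correlated at 0.910 to 0.980 over the tested probes.

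All 3 genes of the CD3 complex were measured. Cd3d, a receptor-associated signalling chain, stood at 1.54, 1.84, 3.04, 2.13 and 1.38 in ZnD tumours 1 to 5, at 1.43, 2.55, 1.18, 0.59 and 3.55 in ZnS tumours 1 to 5, and at 1.22, 2.28, 1.47, 1.53 and 2.68 in ZnA tumours 1 to 5. Tumours ZnD 3, ZnS 5 and ZnA 5 were the highest of their diets, ZnS 4 was the lowest of all, and the 3 diets overlapped. Cd3g, a second chain of the complex, stood at 0.89, 1.36, 2.44, 1.72 and 0.45 in ZnD tumours, at 0.76, 2.35, -0.04, -0.10 and 3.40 in ZnS tumours, and at 0.75, 2.02, 0.77, 0.85 and 2.08 in ZnA tumours. The same tumours were high and ZnS 4 was again the lowest, a span of 11.3-fold for Cd3g and 7.77-fold for Cd3d over the 15 tumours.

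Cd3e, the third chain of the complex, ran from -2.46 to 0.01 in ZnD tumours, from -2.60 to 0.74 in ZnS tumours and from -2.003 to -0.82 in ZnA tumours. In ZnS 3 and ZnS 4 its probe was not well above background. Zap70, the kinase that binds the phosphorylated CD3 chains, stood at -0.30, -0.01, 1.80, 0.35 and -0.02 in ZnD tumours, at -0.18, 0.90, -0.95, -0.98 and 2.19 in ZnS tumours, and at -0.12, 0.48, -0.51, -0.03 and 1.07 in ZnA tumours. Its order over tumours was close to that of Cd3d, with ZnS 5 and ZnD 3 at the top and ZnS 4 and ZnS 3 at the bottom.

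Cd3d and Cd3g correlated with Pearson r of 0.977 over the 15 tumours and of 0.963 without ZnD 3 and ZnS 5, the 2 tumours farthest from the median of Cd3d. For Cd3d with Cd3e r was 0.909, and for Cd3d with Zap70 it was 0.966. These correlations, and those given later, describe tumours that share arrays and one scaling step, and they carry no test. In the RefSeq annotation of rat assembly GRCr8, Cd3d and Cd3g are read in opposite directions from starts 1601 bases apart on chromosome 8, and the start of Cd3e lies 26251 bases from that of Cd3d.

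Of the cytotoxic genes, 3 had a tested probe. Cd8b, the beta chain of the CD8 co-receptor, was well above background on 10 arrays and reached 0.18 in ZnD 3, -0.40 in ZnS 5 and 0.00 in ZnA 5, the highest tumour of each diet. Nkg7, a granule protein of NK and cytotoxic T cells, was well above background on 12 arrays and was highest in ZnD 3 (0.45), in ZnS 5 (1.18) and in ZnA 2 (0.53). Gzma, the granule protease granzyme A, stood at -0.58, -1.60, 2.27, -2.64 and 0.63 in ZnD tumours, at 0.28, -0.95, -0.54, 0.30 and -2.35 in ZnS tumours, and at -1.03, -1.58, -0.70, -0.10 and -0.27 in ZnA tumours. It was high in ZnD 3 like the CD3 genes, but in ZnS 5, where Cd3d, Cd3e, Cd3g, Zap70 and Nkg7 had their highest level of all 15 tumours, it was not well above background. Nor was it in ZnD 4 and ZnA 2, so those 3 low values are bounds.

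The remaining lymphoid members were at or near background. Of the other 9 with a probe, 6 were well above background on 1 to 3 arrays. Cd8a, the alpha chain of CD8, and Gzmk, granzyme K, were detected in ZnD 3 and ZnS 5, Cd2, an adhesion receptor of T and NK cells, in ZnS 2 and ZnS 5, and Gzmb, granzyme B, in ZnD 3. Prf1, the pore-forming protein perforin, was detected in ZnD 2, ZnD 3 and ZnA 3, and Lck, the kinase that starts receptor signalling, in ZnA 1 and ZnA 3. Detection of such dim probes also depends on array brightness. The 75th percentile was 153 signal units in ZnD 2, 164 in ZnA 1 and 171 in ZnA 3, against 103 in ZnS 5 and 89.9 in ZnA 5. Cd4, the co-receptor of helper T cells, Cd5, a receptor that damps T cell signalling, and Klrd1, the NK receptor chain CD94, were well above background on 0 arrays. Cd27 had no named probe.

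The 2 pan-leukocyte members followed the CD3 genes. Laptm5, a lysosomal membrane protein of blood cells, stood at 4.10, 4.50, 4.84, 4.33 and 3.97 in ZnD tumours, at 4.16, 5.00, 3.81, 3.30 and 5.53 in ZnS tumours, and at 4.31, 4.62, 4.00, 4.14 and 5.17 in ZnA tumours. ZnD 3, ZnS 5 and ZnA 5 were again the highest of their diets and ZnS 4 the lowest of all. Ptprc, the leukocyte phosphatase CD45, ran from -1.16 to 0.31 in ZnD tumours, from -2.61 to 0.89 in ZnS tumours and from -1.21 to 0.40 in ZnA tumours, and correlated with Laptm5 at r of 0.964. Its probe was not well above background in ZnD 4, ZnS 3 and ZnS 4, so the lowest value is a bound. A second tested Ptprc probe, of another accession, correlated with the first at 0.837.

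**Figure D1:**
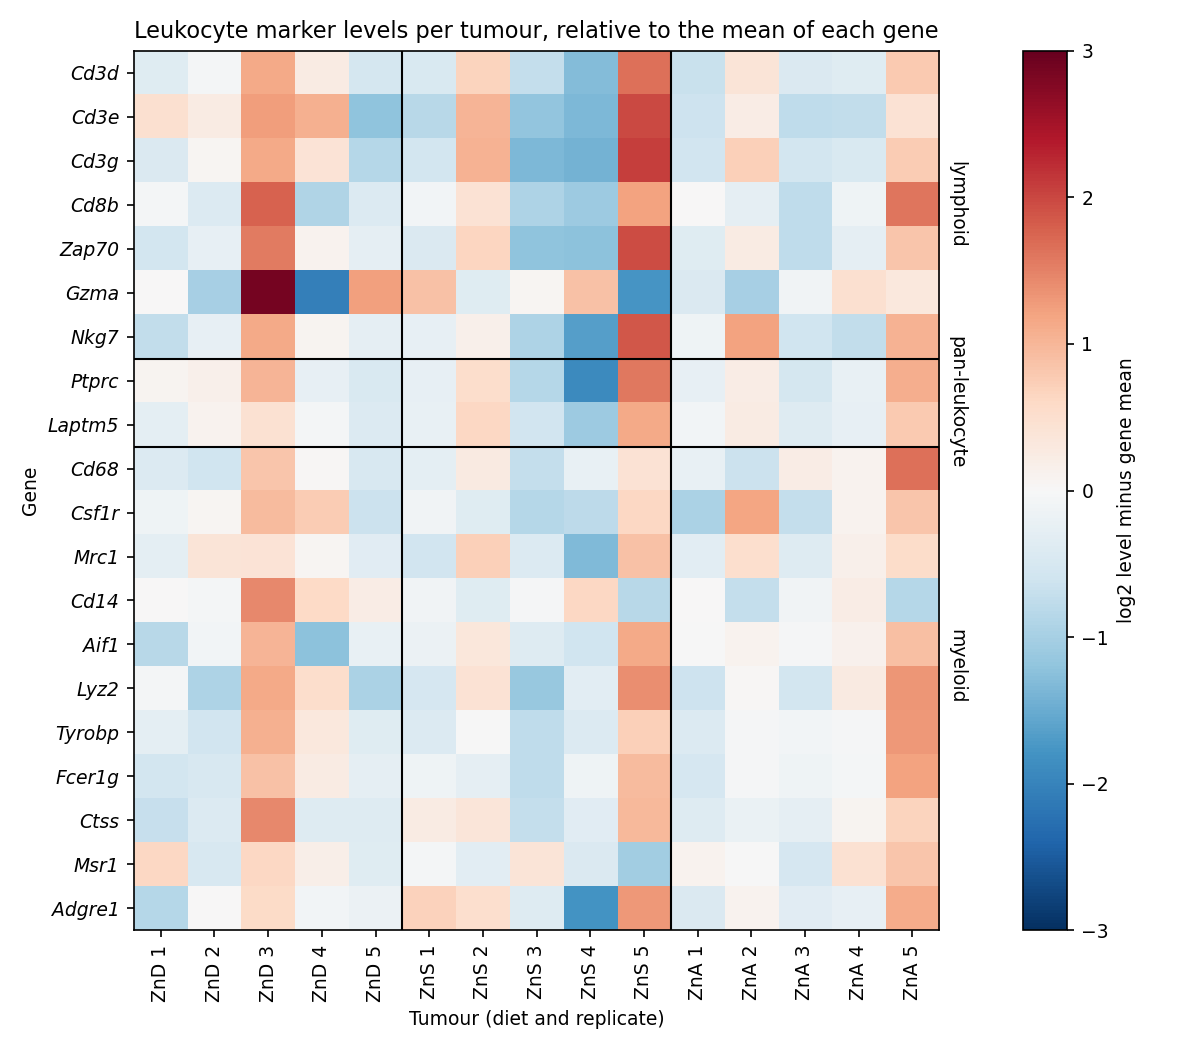
Levels of the 20 tested members (rows) in each of the 15 tumours (columns, grouped by diet as ZnD, ZnS and ZnA), as log2 level minus the mean of that gene over the 15 tumours. Columns ZnD 3, ZnS 5 and ZnA 5 are red for most rows, ZnS 4 is blue for most, and the rows Gzma, Cd14 and Msr1 do not follow the others.

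Among myeloid members, the adaptor genes gave values well above background on all 15 arrays. Tyrobp, the signalling adaptor DAP12, stood at 3.52, 3.23, 4.87, 4.13 and 3.44 in ZnD tumours, at 3.40, 3.80, 3.04, 3.39 and 4.53 in ZnS tumours, and at 3.40, 3.78, 3.72, 3.77 and 5.10 in ZnA tumours. In each diet 1 tumour stood above the other 4, and it was the tumour in which the CD3 genes were highest. Fcer1g, the gamma chain shared by several Fc receptors, ran from 2.34 to 3.76 in ZnD tumours, from 2.13 to 3.85 in ZnS tumours and from 2.38 to 4.10 in ZnA tumours, and correlated with Tyrobp at r of 0.956.

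Lysosomal members showed the same tumours at the top. Ctss, the protease cathepsin S of antigen-presenting cells, stood at 2.81, 3.08, 4.93, 3.12 and 3.11 in ZnD tumours, at 3.75, 3.87, 2.79, 3.17 and 4.48 in ZnS tumours, and at 3.10, 3.29, 3.24, 3.59 and 4.16 in ZnA tumours. Its 2 tested probes correlated at 0.950. Lyz2, a lysozyme of macrophages, was highest in ZnD 3 (4.59), ZnS 5 (4.85) and ZnA 5 (4.78), and Cd68, a glycoprotein of macrophage lysosomes, in ZnD 3 (3.63), ZnS 5 (3.23) and ZnA 5 (4.46). Aif1, the actin-binding protein IBA1, also had its highest level of each diet in those tumours, at 3.73, 3.84 and 3.60.

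Of the surface receptors of macrophages, 5 had a tested probe. Mrc1, the mannose receptor CD206, ran from 0.11 to 0.85 in ZnD tumours, from -0.88 to 1.32 in ZnS tumours and from 0.05 to 1.01 in ZnA tumours. Csf1r, the receptor for the macrophage growth factor CSF1, was well above background on 12 arrays and had its highest level, -0.11, in ZnA 2. Adgre1, the rodent macrophage marker F4/80, was well above background on 10 arrays and was highest in ZnD 3 (-1.15), ZnS 5 (-0.42) and ZnA 5 (-0.62).

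Cd14, the co-receptor for bacterial lipopolysaccharide, had another order. It stood at 3.38, 3.33, 4.82, 3.97 and 3.60 in ZnD tumours, at 3.26, 3.03, 3.34, 4.00 and 2.55 in ZnS tumours, and at 3.39, 2.66, 3.27, 3.59 and 2.52 in ZnA tumours. It was highest in ZnD 3, as were 18 other members among the ZnD tumours, but ZnS 5 and ZnA 5 had its lowest levels of all. Msr1, a scavenger receptor for modified lipoproteins, was well above background on 9 arrays and ranged from -2.96 in ZnS 5 to -1.10 in ZnA 5. In ZnS 5 it was not well above background, so the low end is a bound. Its levels were low, but not at the floor in every tumour, as in ZnD 3 at -1.30 with a floor of -2.52.

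Of the myeloid members without a tested probe, Itgam, the integrin chain CD11b, was well above background in ZnS 5 and ZnA 5. Spi1, the myeloid transcription factor PU.1, was so in ZnD 2, which was among the brighter arrays. Cd163, the haemoglobin scavenger receptor, and Marco, a scavenger receptor for bacteria, were well above background on 0 arrays.

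Promoters of the tested members were searched for short motifs that were chosen with earlier results of these data known. The search took the 250 bases before each start in RefSeq (GRCr8), where 15 of the 20 tested members had an entry. Cd8b, Aif1, Tyrobp, Fcer1g and Msr1 had none. Gzma and Cd14, which did not follow the other members, had an entry and are counted. The counts therefore do not describe the co-varying members alone. The motif GAGGAA, the purine-rich core to which PU.1 and related factors bind, was searched on both strands (TTCCTC on the other). It was present in 7 of 7 myeloid members with an entry, in 2 of 2 pan-leukocyte members and in 1 of 6 lymphoid members, against 23.3% of 33469 promoters of the same length. The windows around the site nearest the start are shown for the single lymphoid member with a match, for both pan-leukocyte members, for 4 myeloid members that followed the CD3 genes and for Cd14, which did not. Each reads 5′ to 3′ on the strand of the gene, with the motif in capitals.
Cd3e, chr8:54211845-54211890, minus strand: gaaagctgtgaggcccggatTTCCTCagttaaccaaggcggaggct
Ptprc, chr13:52259884-52259929, minus strand: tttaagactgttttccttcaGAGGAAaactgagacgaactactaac
Laptm5, chr5:148371797-148371842, plus strand: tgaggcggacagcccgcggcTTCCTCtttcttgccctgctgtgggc
Cd68, chr10:54882443-54882488, minus strand: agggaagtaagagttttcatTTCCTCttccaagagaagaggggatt
Lyz2, chr7:54798032-54798077, minus strand: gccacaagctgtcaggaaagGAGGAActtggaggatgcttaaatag
Ctss, chr2:185775361-185775395, plus strand: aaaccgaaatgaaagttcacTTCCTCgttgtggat
Mrc1, chr17:82157670-82157715, plus strand: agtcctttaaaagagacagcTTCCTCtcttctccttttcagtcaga
Cd14, chr18:28611238-28611283, minus strand: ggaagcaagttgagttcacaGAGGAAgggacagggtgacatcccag

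The first base of these sites lay 100 bases before the start in Cd3e, 163 in Ptprc, 63 in Laptm5, 27 in Cd68, 46 in Lyz2, 15 in Ctss, 35 in Mrc1 and 105 in Cd14. Cd14 held a second site, and so did Mrc1 and Csf1r. A match describes letters only and shows no binding. The ETS-type motif GGAAGT, which can overlap the first in the letters GGAA, was present in 3 of 6 lymphoid, 2 of 2 pan-leukocyte and 4 of 7 myeloid members, against 19.2% of all promoters. The RUNX-type motif TGTGGT matched Gzma and Nkg7 and the E-box CAGGTG matched Cd3g and Gzma, in both cases 2 of 6 lymphoid and 0 of 7 myeloid members, against 14.5% and 15.9% of all promoters.

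To compare the classes, each member was centred on its own mean over the 15 tumours and the members of a class were averaged. The lymphoid mean stood at -0.23, -0.24, 1.55, -0.15 and -0.33 in ZnD tumours 1 to 5, at -0.25, 0.51, -0.89, -1.02 and 1.28 in ZnS tumours 1 to 5, and at -0.40, 0.22, -0.57, -0.32 and 0.82 in ZnA tumours 1 to 5. The myeloid mean stood at -0.31, -0.29, 0.94, 0.09 and -0.36 in ZnD tumours, at -0.13, 0.12, -0.53, -0.52 and 0.59 in ZnS tumours, and at -0.34, 0.03, -0.26, 0.11 and 0.86 in ZnA tumours. ZnD 3, ZnS 5 and ZnA 5 had the highest lymphoid, pan-leukocyte and myeloid means of their diets. There were 2 scan days, and these tumours were all scanned on the same day, as was ZnS 4 with the lowest lymphoid mean. ZnS 5 and ZnA 5 also lay on the same slide. The part of slide and scan day in their levels was not tested. Within its diet ZnD 3 was the highest tumour for 19 of the 20 members, ZnS 5 for 17 and ZnA 5 for 16. The lymphoid mean spanned 2.57 log2 units over the 15 tumours and the myeloid mean 1.47. Both spans are approximate at the low end, since Cd3e, Cd8b and Nkg7 in ZnS 4, and Csf1r and Adgre1 in ZnS 3, were not well above background.

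**Figure D2:**
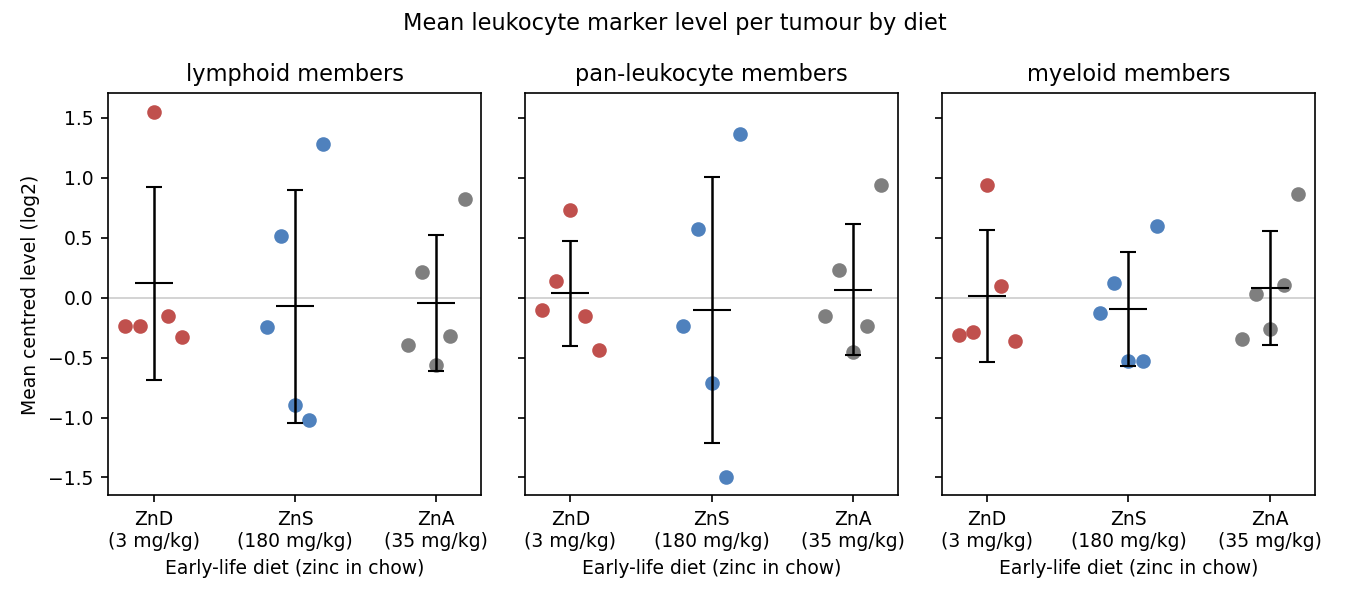
Mean centred log2 level of the tested lymphoid, pan-leukocyte and myeloid members in each tumour, by diet (ZnD, ZnS, ZnA), where points are tumours and bars are the mean and SD of 5. The groups overlap in all 3 panels, and in each diet 1 tumour lies above the rest.

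The lymphoid and myeloid means were high and low in largely the same tumours. Over the 15 tumours Pearson r was 0.927 and Spearman rho 0.868, and without ZnD 3 and ZnS 5, the 2 tumours farthest from the median lymphoid mean, r was 0.873. With the mean of each diet taken out r was 0.940, with the mean of each slide taken out 0.937, and with the mean of each scan day taken out 0.940. Array brightness (the log2 75th percentile) correlated with the lymphoid mean at r of -0.154 and with the myeloid mean at -0.172 (Spearman rho -0.475 and -0.221), and at r of -0.326 and -0.349 without the dim arrays ZnD 1 and ZnD 4. With brightness taken out r between the classes was 0.925. Under normexp background correction r was 0.827. For scale, the correlation of a tested probe with the lymphoid mean had a median of -0.03 over all 21010 probes and was at least 0.7 for 1.25% of them, and with the myeloid mean for 1.29%.

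**Figure D3:**
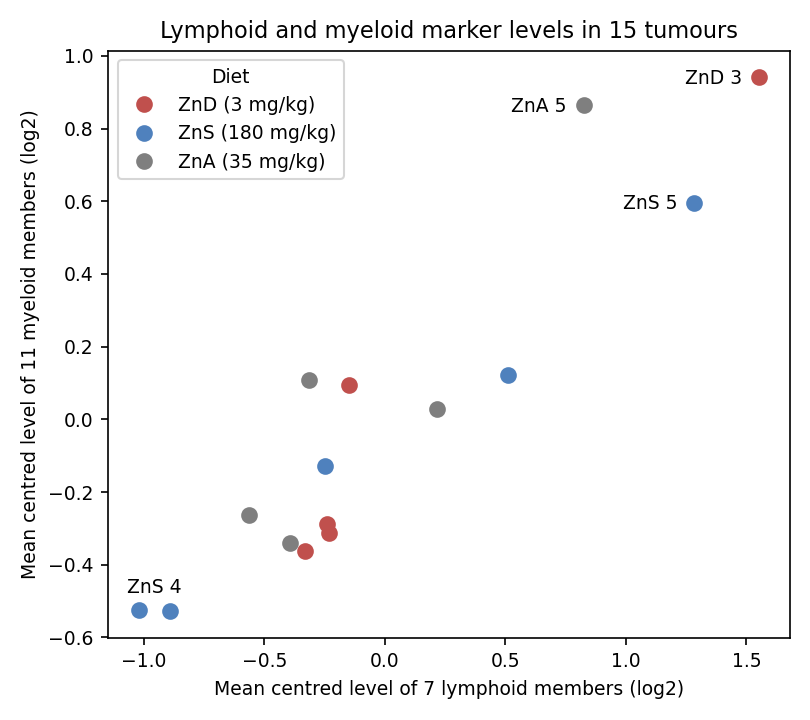
Mean centred log2 level of the 7 lymphoid members (x axis) against that of the 11 myeloid members (y axis) in 15 tumours coloured by diet. The points run from ZnS 4 at the lower left to ZnD 3 at the upper right, with r of 0.927.

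With each gene left out of its own class mean, 17 of the 20 members correlated at 0.6 or more with both class means, namely 6 of 7 lymphoid, 2 of 2 pan-leukocyte and 9 of 11 myeloid members. The share of all probes was taken at 0.7 only, for 1 mean at a time (1.25% lymphoid, 1.29% myeloid). Below 0.7 were Cd68 with the lymphoid mean (0.675), and Mrc1 (0.660), Aif1 (0.694) and Adgre1 (0.695) with the other myeloid members. Zap70 had r of 0.967 with the other lymphoid members and 0.896 with the myeloid mean, and Tyrobp had 0.850 with the lymphoid mean and 0.947 with the other myeloid members. The median r was 0.714 over the 77 pairs of a lymphoid with a myeloid member, 0.799 over the 21 lymphoid pairs and 0.597 over the 55 myeloid pairs. The highest of the 77 pairs was 0.894, for Cd3d with the macrophage receptor gene Mrc1, the lowest was -0.349, and 62 were positive.

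Gzma, Cd14 and Msr1 were the exceptions. Gzma correlated with the other lymphoid members at -0.149 and with the myeloid mean at 0.139, but at -0.455 without ZnD 3 and ZnS 5 and at -0.597 without ZnD 3 and ZnA 5. Cd14 correlated with the lymphoid mean at -0.097 and with the other myeloid members at -0.164, and its second probe, which correlated with the first at 0.690, gave -0.251 and -0.334. Without ZnD 3 and the other tumour farthest from the median of the class mean, Cd14 stood at -0.728 against the lymphoid mean and at -0.624 against the other myeloid members. ZnD 3 was left out both times, and there Cd14, Gzma and most other members were high together. In the other tumour left out, ZnS 5 or ZnA 5, Cd14 was at its lowest (2.55 and 2.52) while the class means were high. Of the tumours left out, ZnD 3 was thus the one that went against a negative correlation. Msr1 correlated with the lymphoid mean at 0.083 and with the other myeloid members at 0.170, and at 0.328 and -0.436 without the same pairs of tumours, and its levels were near the floor. With Gzma, Cd14 and Msr1 left out of the class means, a choice made after their values were seen, r between the classes was 0.921.

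Gzma and Cd14 shared their highest tumours. Both were highest in ZnD 3 among ZnD tumours, in ZnS 4 among ZnS tumours and in ZnA 4 among ZnA tumours, and they correlated at r of 0.565, or 0.359 without ZnD 3 and ZnA 5. The lead of Gzma was small in ZnS 4 (0.30 against 0.28 in ZnS 1) and in ZnA 4 (-0.10 against -0.27 in ZnA 5). ZnD 3 was the highest ZnD tumour for 19 of the 20 members. ZnS 4 had the lowest lymphoid mean of the 15 tumours. Markers of other cells moved with these members too. The mean of 9 mast cell and eosinophil markers correlated with Cd14 at -0.774 and with Gzma at -0.550, and without ZnD 3 and ZnS 4 at -0.480 and 0.058. The mean of 10 epithelial markers correlated with Msr1 at 0.795, with Gzma at 0.621 and with Cd14 at 0.599, and without ZnD 3 and ZnS 5 at 0.658, 0.134 and 0.065. Msr1 also correlated with the means of 2 neutrophil and of 3 red cell markers, at 0.632 in both cases, and at 0.642 and 0.532 without the 2 tumours farthest from the median of each mean. The part of these cells in the levels of Gzma, Cd14 and Msr1 was not tested.

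Other marker lists placed the class means among the cells of the tumour. Further T and NK genes, 11 tested of 35 listed, had a mean that correlated with the lymphoid mean at 0.929, and further myeloid genes, 20 tested of 40 listed, one that correlated with the myeloid mean at 0.955. Not all genes of these lists followed. Single genes of the first ran from -0.525 to 0.958 against the lymphoid mean, and those of the second from -0.150 to 0.954 against the myeloid mean. Means of mast cell, neutrophil, red cell, epithelial, fibroblast, endothelial and skeletal muscle markers correlated with the 2 class means at values from -0.395 to 0.324 over all 15 tumours. Single genes of these lists differed in sign and ran more widely. They lay between -0.505, for Col1a1 with the lymphoid mean, and 0.580, for Dcn with the myeloid mean, both fibroblast markers. Among the epithelial markers, Epcam stood at -0.435 and Cldn3 at 0.531 with the lymphoid mean. Of the list means, those of neutrophil markers and of mast cell and eosinophil markers, also of myeloid cells, correlated with the myeloid mean at only 0.296 and -0.070. These values moved with single tumours. Without ZnD 3 and ZnS 5, mast cell and eosinophil markers correlated with the lymphoid mean at 0.596 (-0.023 over all 15), and without ZnD 3 and ZnA 5, epithelial markers correlated with the myeloid mean at -0.550 (0.055 over all 15). B and plasma cell markers gave no tested probe, since all 6 with a probe, Cd79b among them, were well above background on 0 arrays. Foxp3, the factor of regulatory T cells, Ifng, interferon gamma, and Pdcd1, the inhibitory receptor PD-1, were also well above background on 0 arrays.

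**Figure D4:**
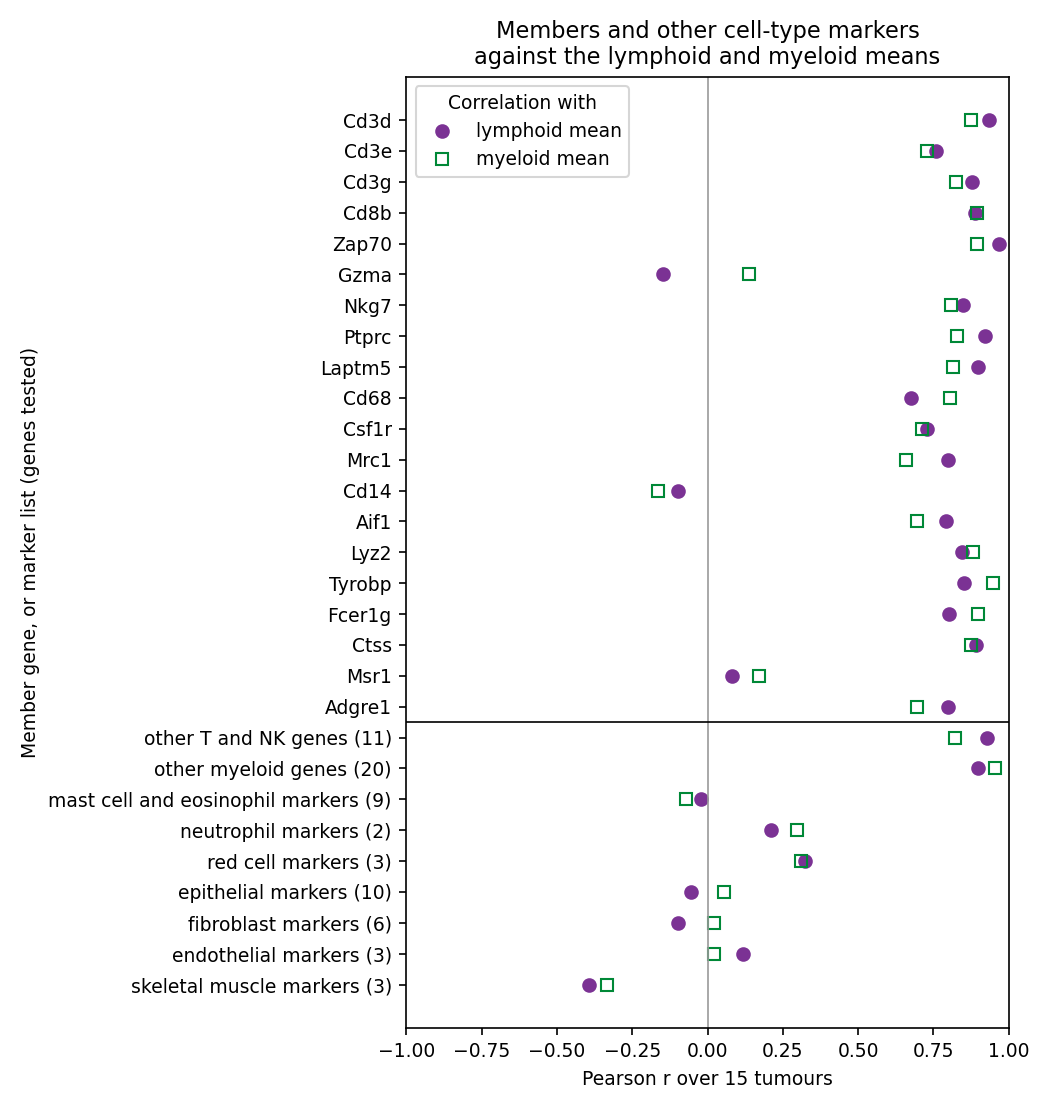
Pearson correlation over 15 tumours (x axis) of each tested member, and of the mean of each other marker list with its number of tested genes, with the lymphoid mean (filled circles) and the myeloid mean (open squares), each member left out of its own class. Members lie at 0.6 or above except Gzma, Cd14 and Msr1. Lists of mast cell and eosinophil, neutrophil, red cell, epithelial, fibroblast, endothelial and skeletal muscle markers lie between -0.395 and 0.324. Without 2 tumours, mast cell markers reached 0.596 with the lymphoid mean and epithelial markers -0.550 with the myeloid mean.

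Of named genes outside the member list, those most like the lymphoid mean over the 15 tumours included Cd6, a T cell adhesion receptor (r of 0.958), Tasl (0.954), P2ry6, a receptor for uridine diphosphate (0.952), Myo1f, a myosin of blood cells (0.939), Mefv, the pyrin gene (0.938), Tbc1d10c (0.936) and Gimap5, a GTPase of lymphocytes (0.931). Those most like the myeloid mean included Myo1f (0.960), Slamf9 (0.954), Ncf4, a subunit of the phagocyte oxidase (0.954), the complement genes C1qa (0.952) and C1qb (0.948), Tbxas1, thromboxane synthase (0.938), and P2ry6 (0.926). Myo1f and P2ry6 were on both lists.

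The diets were then compared to ask whether early zinc intake left a difference in these genes. In limma's moderated F test over the 3 diets, adjusted by Benjamini-Hochberg over all 21010 probes, 0 of the 20 members passed the threshold of 0.05, where percent called over all probes was 0, and adjusted p ran from 0.990 to 0.999. At an unadjusted p under 0.05 the F test gave 0 members, against 4.03% of all probes. Diet made up a median of 1.93% of the variance of a member over the tumours, against 10.8% over all tested probes. The members varied widely between tumours all the same, with a median SD of 0.753 over the 15 tumours against 0.390 for all tested probes.

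Deficient tumours were set against control tumours first. In limma 0 of 20 members passed (0% of all probes were called, lowest adjusted p 0.987 among members), and 1 had an unadjusted p under 0.05, against 3.91% of all probes. In 0 members did the ZnD tumours lie wholly above or below the ZnA tumours, against 0.39% of all probes. By sign alone, 5 lymphoid members were higher in ZnD tumours and 2 lower, with a median log2 difference of 0.15, and 2 myeloid members were higher and 9 lower, with a median of -0.12; over all probes 49.3% were higher and the median was -0.00. The lymphoid median was -0.19 without ZnD 3 and 0.36 without ZnA 5, and the myeloid median was -0.36 and 0.12 without the same tumours. The sign of the lymphoid median turned without either of 2 of these 10 tumours (ZnD 3, ZnA 1), and that of the myeloid median without any 1 of 3 (ZnD 2, ZnD 5, ZnA 5). Within the 4 slides the difference of the lymphoid mean ran from -0.59 to 1.27 and that of the myeloid mean from -0.85 to 0.78. Cd3d averaged 1.99 ± 0.66 in ZnD tumours and 1.84 ± 0.61 in ZnA tumours (SD, n = 5 each), so ZnD minus ZnA was 0.15 on the log2 scale (95% interval -0.88 to 1.18).

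The member with an unadjusted p under 0.05 was Cd14. It averaged 3.82 ± 0.61 in ZnD tumours, 3.24 ± 0.53 in ZnS tumours and 3.09 ± 0.47 in ZnA tumours (SD, n = 5 each). ZnD minus ZnA was 0.73 on the log2 scale (95% interval 0.06 to 1.41, adjusted p 0.987 in limma), and the second Cd14 probe differed by 0.80. Without ZnD 3 the difference was 0.48, under normexp 0.38, in the deposited values 0.53 and with array weights 0.33. It did not pass the test, and 1 member in 20 at that unadjusted level is near the 3.91% of all probes.

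**Figure D5:**
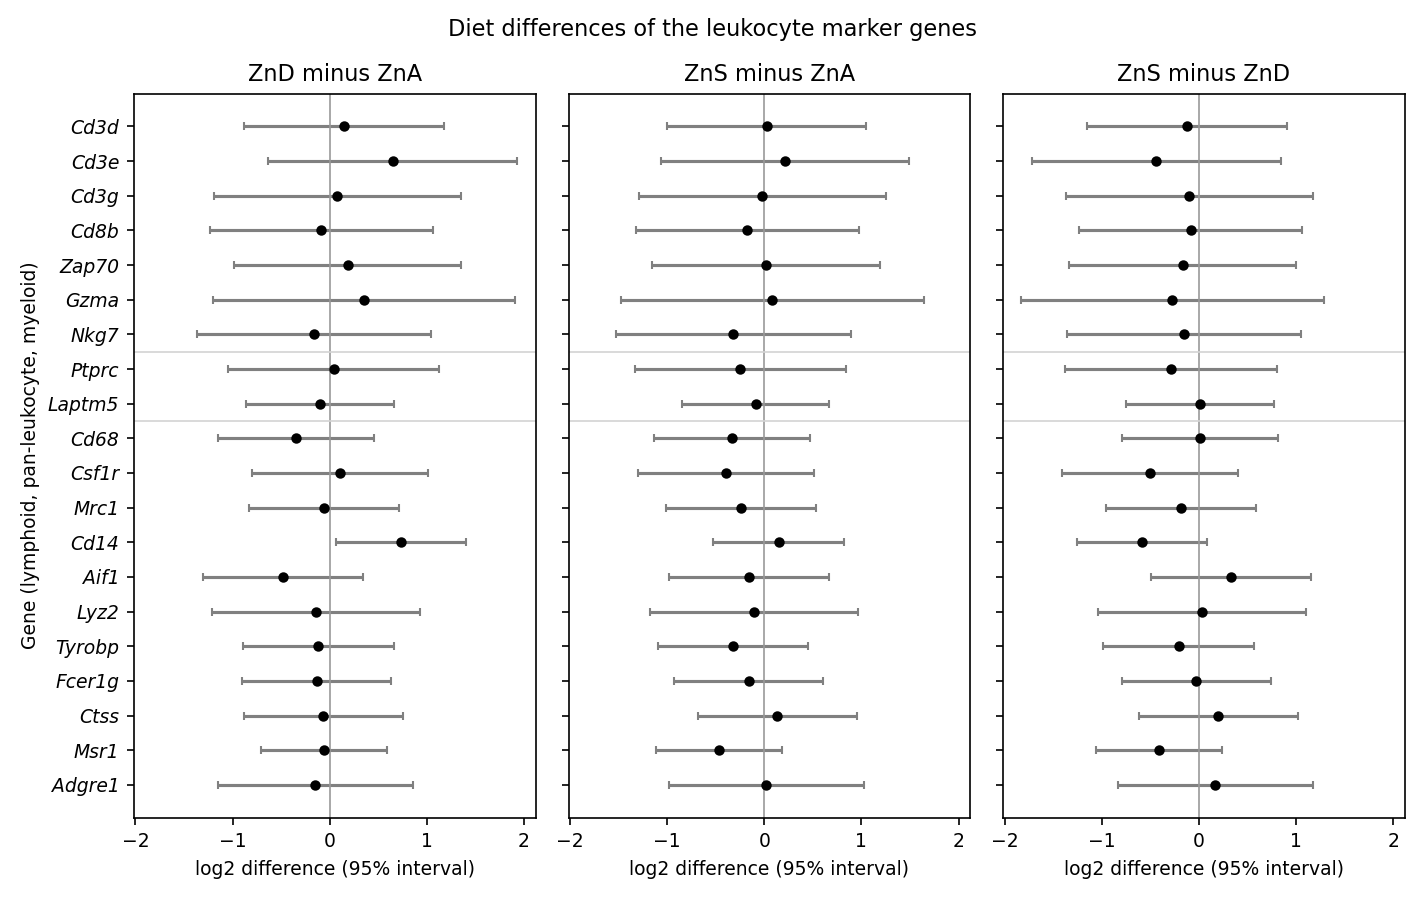
Log2 difference (points) and 95% interval (bars) of each tested member in ZnD minus ZnA, ZnS minus ZnA and ZnS minus ZnD, from the limma fit over 15 tumours. The intervals include 0 except that of Cd14 in ZnD minus ZnA, which runs from 0.06 to 1.41.

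Supplemented tumours were next set against control tumours. In limma 0 of 20 members passed (0% of all probes were called), and 0 had an unadjusted p under 0.05, against 1.98% of all probes. In 0 members did the 2 diets not overlap, against 0.357% of all probes. By sign, 4 lymphoid members were higher in ZnS tumours and 3 lower, with a median log2 difference of 0.02, and 3 myeloid members were higher and 8 lower, with a median of -0.16, while 48.8% of all probes were higher. The lymphoid median was -0.48 without ZnS 5 and 0.31 without ZnS 4, and the myeloid median was -0.42 without ZnS 5 and 0.02 without ZnA 5. The sign of the lymphoid median turned without any 1 of 5 tumours (ZnS 2, ZnS 5, ZnA 1, ZnA 3, ZnA 4), and that of the myeloid median without ZnA 5. Laptm5 averaged 4.36 ± 0.90 in ZnS tumours and 4.45 ± 0.47 in ZnA tumours (SD, n = 5 each), so ZnS minus ZnA was -0.09 on the log2 scale (95% interval -0.85 to 0.67). Within slides the difference of the myeloid mean ran from -0.26 to 0.21 and that of the lymphoid mean from -0.45 to 1.03.

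Supplemented and deficient tumours, the extremes of zinc intake, gave no call among the members either. In limma 0 of 20 members passed (0% of all probes were called, lowest adjusted p 0.727 among members), and 0 had an unadjusted p under 0.05, against 7.05% of all probes. In 0 members did the 2 diets not overlap, against 1.5% of all probes. All 7 lymphoid members were lower in ZnS tumours by sign, with differences from -0.44 to -0.09 and a median of -0.15, and 5 myeloid members were higher and 6 lower, with a median of -0.03, while 49.9% of all probes were higher. The lymphoid members other than Gzma correlate with one another, so their signs are not separate observations, and without ZnD 3 the lymphoid median was 0.17. The sign of that median turned without any 1 of 3 tumours (ZnD 3, ZnS 3, ZnS 4), and that of the myeloid median without any 1 of 4 (ZnD 3, ZnD 4, ZnS 3, ZnS 4). Zap70 averaged 0.20 ± 1.35 in ZnS tumours and 0.36 ± 0.83 in ZnD tumours (SD, n = 5 each), so ZnS minus ZnD was -0.17 on the log2 scale. Within slides the difference of the lymphoid mean ran from -1.72 to 1.62.

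With 5 tumours a diet these comparisons had limited reach. The 95% intervals reached, at the median, 1.21 log2 units to either side for the lymphoid members, a factor of 2.31, and 0.80 for the myeloid members, a factor of 1.74. The intervals leave room for diet differences of these sizes in either direction and do not show that the diets were alike.

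The other T, NK and myeloid genes gave the same result for the diets. Of the further T and NK genes 0 of 11 passed in any comparison, and the smallest F test p was that of Lef1, a transcription factor of T cells that epithelial cells also use (unadjusted p 0.124, adjusted p 0.990 in limma). Lef1 correlated with the lymphoid mean at r of -0.525. Of the further myeloid genes 0 of 20 passed. The smallest F test p was that of Lgmn, the lysosomal protease legumain, which averaged 1.74 ± 0.28 in ZnD tumours, 2.50 ± 0.38 in ZnS tumours and 2.35 ± 0.29 in ZnA tumours (SD, n = 5 each; unadjusted p 0.00506, adjusted p 0.990 in limma). Lgmn correlated with the myeloid mean at r of -0.04, and so did not follow the macrophage members over these tumours.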

How the data were processed

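RNA of 15 mammary tumours was measured on 1 single-colour Agilent array each, and groups follow the diet named in the labels, the "negative control" read as the adequate diet. One free-text label names mammary gland at day 21; the characteristics and design text, which name tumours at 180 days, were followed. The deposited scanner files hold spot intensity, from which Agilent's Feature Extraction software (11.5.1.1) had taken background and spatial trend, per the file headers. Version 15.5 is named in the submitters' processing notes. The authors' deposited table of 30002 probes holds log2 values with array medians from 7.09 to 7.10 that correlated with the log2 spot median at 0.984 to 1.000, so it was read as not centred by gene. Its normalization is not given in the sources used here, and it served as an alternative.

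Control spots were left out, outlier spots set to missing (39 missing values among the tested probes) and the spots of a probe averaged. Probes were named through their accession in a RefSeq table of assembly GRCr8, which gave 1 gene for 17502 of 41012 probes (42.7%). The array was designed on another build, rn4, and no coordinates were taken from it. Diets were compared by limma's lmFit and eBayes (version 3.58.1, R 4.3.3) in 1 fit of all 15 arrays with 12 residual degrees of freedom. Tests were two-sided, with Benjamini-Hochberg adjustment over 21010 probes, after a test on simulated data. In 10 simulated sets with 200 changed probes, the fit recovered 35.6% of 2-fold and 90.2% of 4-fold changes in ZnD minus ZnA. False calls averaged 12.2 per set. The changed probes were drawn from all probes, which at the median varied less than the members. Every tested member is named, by its tested probe with the highest mean level. Outside the member list, named genes are the smallest F test p of each further list and, from the 8 genes most correlated with each class mean, all but 1 of each, which are not reported here; Foxp3, Ifng, Pdcd1 and Cd79b were picked after their values were seen. The members, lists and promoter motifs were chosen with earlier results of these data known. The labels name no pairing of tumours by replicate number, so none was used. Over 15 pairs of same-numbered tumours, deviations from the diet means correlated at -0.281 to 0.224, and 6 pairs exceeded 0.1. Such values cannot show whether the tumours were paired by design. For normexp (offset 50) the spot median replaced the mean signal, which was not used here, and local backgrounds marked as outliers were replaced by the array median. The number of arrays limits the precision.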

Additional observations from a re-analysis of the deposited data

Results flagged for a closer look

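Of 66 groups of 5 tumours examined (the members and the lymphoid and myeloid means in each diet), 5 held 1 tumour whose gap to the next was more than 0.710 of the group's range, where chance gives about 1 in 20 groups. Groups of members that move together are not independent. ZnD 3 stood apart for the lymphoid mean, at 1.55 against -0.15 in the next ZnD tumour, and for Ctss, at 4.93 against 3.12. ZnA 5 stood apart for Aif1, at 3.60 against 2.83 in the next ZnA tumour, for Tyrobp, at 5.10 against 3.78, and for Fcer1g, at 4.10 against 2.85.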

How the results depend on the processing

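The lack of diet calls among the members held under every alternative run: of 1536 recomputed member differences 0 passed the threshold and all moved by less than 1 SD. Over all probes, limma array weights called 1 probe in ZnD minus ZnA, 1 in ZnS minus ZnD and 1 in the F test, against 0 otherwise, and leaving out single tumours gave 0 to 1 in ZnS minus ZnD, the 1 without ZnS 1, and 0 elsewhere; the cause was not tested. Without single tumours the lymphoid median ran from -0.19 to 0.36 in ZnD minus ZnA, from -0.48 to 0.31 in ZnS minus ZnA and from -0.63 (without ZnS 5) to 0.17 in ZnS minus ZnD, and the myeloid median from -0.36 to 0.12, from -0.42 to 0.02 and from -0.28 (without ZnS 5) to 0.20 (without ZnD 3). The correlation of the classes was 0.827 under normexp, 0.893 without ZnD 3 and 0.943 without ZnA 4. With the replicate number as a block it was 0.950, the lymphoid median in ZnD minus ZnA was 0.15, and the block changed no call. The labels name no pairing by these numbers. Signal over background limits 8 members, which were well above it on 13 (Cd3e), 12 (Gzma, Nkg7, Ptprc, Csf1r), 10 (Cd8b, Adgre1) and 9 (Msr1) of 15 arrays, and the correlations they enter.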
